A study of Mus musculus with 4 samples.

Results

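The regions described here are weaker CTCF binding regions of control WEHI-231 cells in which no CTCF peak was listed after knockdown of TFII-I. WEHI-231 is a mouse B cell lymphoma line of (BALB/c x NZB)F1 origin. CTCF-bound DNA was isolated with 1 commercial antibody and sequenced (ChIP-seq) from 2 libraries of cells with a stable TFII-I knockdown (labelled TFII-I KD, written shTFII-I in the design text) and 2 libraries of control cells (labelled CT), all grown under the same conditions. The labels give no clone and do not say that the replicates were separate cultures, so the spread between libraries may be technical, and the degree of knockdown was not analysed here. Merging every peak of the 4 lists with those it touched (overlap of 1 bp or more) left 29116 regions. The members were chosen by measured values: no peak in knockdown 1 or knockdown 2, a peak in both controls, a score under 100 in at least 1 control, and a position on an autosome. They numbered 2629. The regions they are compared with met the same control conditions but had a peak in at least 1 knockdown list, and these numbered 7212. Members and comparison regions together are called weaker control regions below, 9841 in all.

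The zinc finger protein CTCF recognises a long DNA motif, blocks the action of enhancers across insulators and, together with cohesin, holds the bases of chromatin loops. Strong CTCF sites are mostly shared between cell types, whereas weaker sites, often with a poorer match to the motif or with DNA that can be methylated, vary more. TFII-I, encoded by Gtf2i, is a transcription factor that binds initiator and E-box elements of promoters. The title of the series asks whether TFII-I directs CTCF to promoters across the genome. No genome or gene annotation of the build of the lists, mm9, was used here, so regions are given by position and neither sequences nor genes are named.

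Each peak carries a score given by the authors, at least 50 in every list, which was not rescaled between lists here. A common limit of 100 and the lower or higher of the control scores are used to class regions, so equal scores in different lists need not stand for equal binding. Knockdown 1 and knockdown 2 held 19076 and 15309 peaks, against 24467 and 23873 in control 1 and control 2. Median scores were 85.5 and 79.1 in the knockdown lists and 111 and 107 in the control lists, and 64.3% and 71.6% of knockdown peaks scored under 100, against 42.9% and 44.6% of control peaks. The median knockdown peak spanned 328 bp in replicate 1 and 446 bp in replicate 2, and the median control peak 483 and 507 bp. A shorter list with lower scores can lack a peak because less was bound or because fewer reads were sequenced, and sequencing depth is not given in the sources used here. These 2 sources of a missing peak cannot be told apart from the lists alone.

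Of the 9841 weaker control regions, 26.7% had no knockdown peak (95% Clopper-Pearson interval 25.8 to 27.6%), while this share was 14.8% of all 20252 autosomal regions called in both controls. The rule uses these calls, so the shares are a description and carry no test. Knockdown 1 lacked 37.8% of the weaker control regions and knockdown 2 lacked 53.8%. The same regions tended to be missing from both lists. Among regions missing from knockdown 1, 70.7% were also missing from knockdown 2, against 43.5% among regions called in knockdown 1. In the reverse direction, 9441 autosomal regions were called in both knockdown lists with a score under 100 in at least 1 of them. Of these, 1.30% (123 regions, 1.08 to 1.55%) had no control peak. This share is not matched to the 26.7%, since the control lists are longer. The limit of 100 also takes 64.3% and 71.6% of knockdown peaks but 42.9% and 44.6% of control peaks.

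The number of members depends on how many lists are asked. With each list limited to its 15309 highest-scoring peaks, 285 regions met the rule, and 193 of the 285 were among the 2629 members. The 285 were 17.4% of the 1641 weaker control regions of those shorter lists. Control scores near the cut were 91.4 in control 1 (rank 15480.5) and 88.06 in control 2 (rank 15314). The lower control scores of these regions thus lie close under 100, and the 17.4% is not matched to the 26.7%. In the full lists, 11.7% of regions with a lower control score of 90 to 100 were members. Without control 1 the rule gave 4063 regions, without control 2 4241 regions and without knockdown 1 5292 regions, since fewer calls are then required.

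Most members were weak in both controls. Scores of 100 or more were reached in neither control by 1760 members (66.9%), in control 2 alone by 377 and in control 1 alone by 492. For the comparison regions, 2929 of 7212 (40.6%) stayed under 100 in both controls. The median member score was 75.7 in control 1 (range 50.03 to 276.9) and 72.6 in control 2 (50.02 to 247.1), against 89.97 and 86.5 for the comparison regions. Ranked by score from the top of its list, the median member stood at 18399.5 in control 1 and 18358 in control 2, beyond the 15309 peaks that the list of knockdown 2 holds. In 1429 members (54.4%) neither control peak was among the 15309 highest of its list, and in 193 (7.34%) both were.

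The share of members was lower at each step up in control score. Where the lower of the control scores lay between 50 and 60, 42.7% of 2372 regions had no knockdown peak (40.7 to 44.7%). This share was 32.2% between 60 and 70, 22.9% between 70 and 80 and 17.2% between 80 and 90. Between 90 and 100 it was 11.7% of 1654 regions (10.2 to 13.3%). The decline went on without a break past the limit of the rule, to 7.56% between 100 and 120, 3.17% between 120 and 150, 1.05% between 150 and 200 and 1 of 1410 regions above. Each knockdown list showed the same gradient. Knockdown 1 lacked 55.02% of the lowest class and 19.5% of the highest, and knockdown 2 lacked 66.1% and 37.4%.

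**Figure D1:**
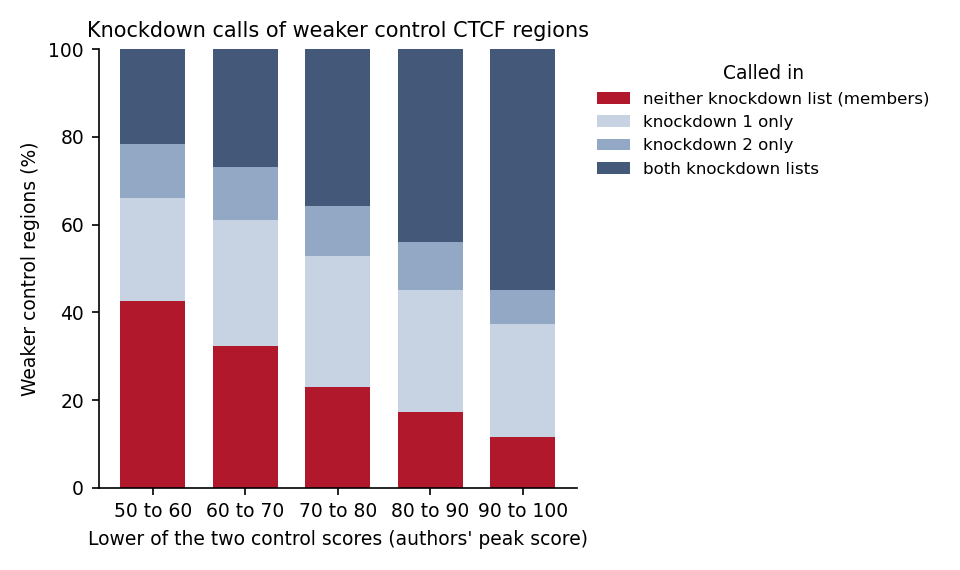
Share of weaker control regions (y axis, %) called in neither knockdown list (the members), in knockdown 1 only, in knockdown 2 only or in both, for 5 classes of the lower control score (x axis, the authors' peak score). The member share was 42.7% in the class from 50 to 60 and 11.7% in the class from 90 to 100.

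Agreement between the knockdown lists held within each score class. Among regions with a lower control score of 50 to 60, 77.6% of those missing from knockdown 1 were also missing from knockdown 2, against 51.9% of those called in knockdown 1. In the class from 90 to 100 these shares were 59.9% and 31.9%. Within a class of the lower control score, the knockdown lists tended to lack the same regions. These classes leave the higher control score free, and agreement at equal scores in both controls was not examined. The share also varied with the other control: where the higher control score was under 75, 50.5% of 1548 regions were members, and where it was 150 or more, 8.72% of 1113 were.

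Members with the highest ranks had one strong and one weaker control peak. The region on chromosome 10 from 66998591 to 66999087 had no peak in knockdown 1 or 2 and scored 277 in control 1 and 98.9 in control 2. The nearest knockdown peaks lay 220463 bp (knockdown 1) and 185584 bp (knockdown 2) away, so no knockdown peak was listed anywhere near. The region on chromosome 19 from 60965317 to 60965938 also had no knockdown peak and scored 246 and 90.6 in controls 1 and 2. Its surroundings differ from those of the first, as peaks of both knockdown lists lay 2106 and 2116 bp away and a region called in all 4 lists began 2049 bp from it.

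The other members chosen by rank showed the same split between controls. Chromosome 5 held 2 of them, from 135554053 to 135554517 with 194 in control 1 and 97.7 in control 2, and from 120955065 to 120955820 with 181 and 97.2. On chromosome 15, from 99327352 to 99327984, controls 1 and 2 scored 190 and 92.4. Control 2 was the stronger library in 1 of the 6, on chromosome 18 from 38497780 to 38498308, with scores of 94.5 and 195 in controls 1 and 2. None of the 6 had a knockdown peak. That 1 control peak is well over the limit and the other under it follows from the rule, which asks for a low score in 1 control only. Comparison regions of the highest rank were of the same kind. On chromosome 17, from 15914953 to 15915525, knockdown 1 and 2 scored 125 and 62.0, and control 1 and 2 scored 308 and 99.1. On chromosome 13, from 52807294 to 52807829, knockdown 1 scored 147, knockdown 2 had no peak, and the controls scored 349 and 99.3. On chromosome 9, from 70777722 to 70778215, all 4 libraries had a peak, with scores of 74.0 and 71.0 in the knockdown lists and 263 and 99.4 in the controls.

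The values nearest the limit of the rule were as follows. Just inside it lay chromosome 18 from 66564021 to 66564637 with control scores of 138 and 99.93, chromosome 6 from 54759435 to 54760019 with 99.91 and 121, and chromosome 2 from 12223419 to 12223952 with 109 and 99.85. Just outside it lay chromosome 9 from 58721700 to 58722204 with 100 and 100, chromosome 4 from 88403382 to 88403875 with 100.2 and 113, and chromosome 11 from 81796544 to 81797222 with 133 and 100.2. None of these 6 had a knockdown peak. Their scores run on across the limit of 100.

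Control peaks of members were narrower than those of comparison regions. The rule sets no limit on width, but a wider control peak more easily meets its overlap of 1 bp with a knockdown peak. In control 1 the median peak width was 442 bp in members and 478 bp in comparison regions, and in control 2 it was 456 and 500 bp. The difference was -36 bp in control 1 and -44 bp in control 2, a mean of -40 bp ± 5.66 (SD, n = 2 libraries). Both libraries come from the same condition, so no test across groups applies. Because width grows with score, the comparison was repeated within score classes. In the class with a lower control score of 50 to 60, the median width averaged over both control peaks was 438 bp in 1013 members and 467.5 bp in 1359 comparison regions. In the class from 90 to 100 it was 476 bp in 193 members and 510 bp in 1461 comparison regions. Members were narrower in each of the 5 classes, by 28 to 37.5 bp. Within classes of the mean control score the weighted difference was -27.1 bp. Without score classes, the difference was -22 bp with lists of equal length, where weaker regions lie close under 100 only. It was -25 bp with a reciprocal overlap of 50%, also without score classes.

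**Figure D2:**
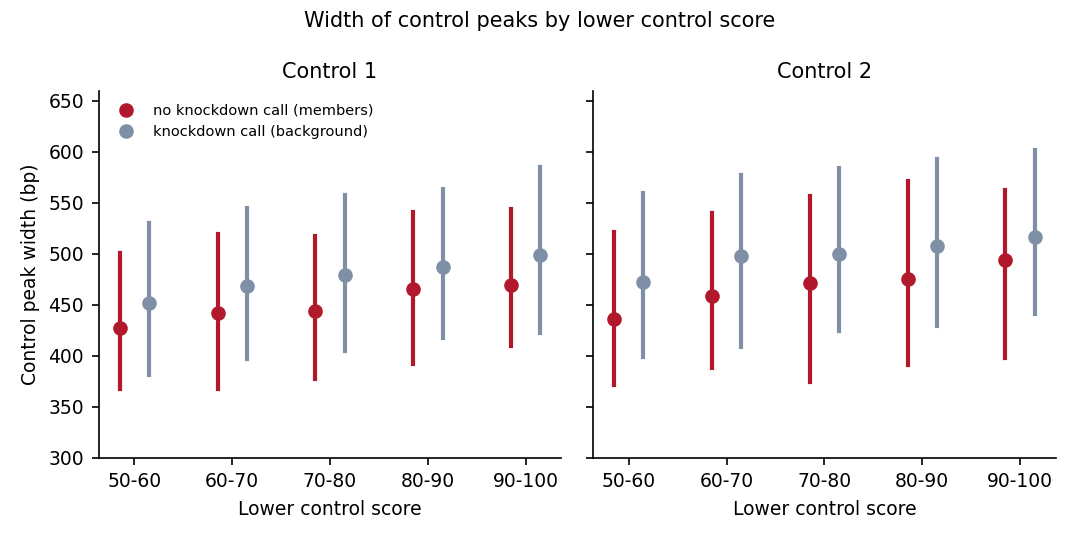
Width of control peaks (y axis, bp) in control 1 and control 2, by class of the lower control score (x axis), for members and for comparison regions with a knockdown peak. Points are medians and bars run between the quartiles. The quartile ranges overlap in every class, while the member median is the lower one in each, at 427 against 452 bp in control 1 for scores of 50 to 60.

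The position of the peaks within a region showed no such difference. The centres of the control 1 and control 2 peaks lay a median of 47 bp apart in members and 47.5 bp apart in comparison regions. A single peak per control was the norm, and 1 of 2629 members held more than 1 peak of a control list. The 4 widest members were exceptions to the usual size. The widest, on chromosome 16 from 3246474 to 3248443, spanned 1970 bp, scored 94.7 and 62.1 in controls 1 and 2 and had control peaks of 1832 and 1738 bp. Next came chromosome 9 from 64026284 to 64027672, which spanned 1389 bp and scored 98.7 and 141, with control peaks of 596 and 1389 bp. The other 2, also on chromosome 9, from 45219827 to 45220887 and from 114523166 to 114524171, spanned 1061 and 1006 bp. The widest member was wide in both controls, whereas the other 3 were widened mainly by 1 control peak. No filter for repeats was applied.

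By the rule no knockdown peak touched a member, so distances to such peaks describe the spacing around members. Comparison regions hold a knockdown peak themselves, so no matching distance was taken. To the nearest region called in all 4 lists, the median was 36283 bp for members and 34402.5 bp for comparison regions. The median distance from a member to the nearest peak was 22428 bp in knockdown 1 and 27786 bp in knockdown 2. A knockdown peak lay within 500 bp of 60 members (2.28%) and within 1 kb of 118 (4.49%). Of the 2629 members, 1752 had no knockdown peak within 10 kb and 303 had none within 100 kb. Counting a knockdown peak by its centre, within 500 bp of a control peak centre, gave 2630 members. Asking instead for a reciprocal overlap of 50% gave 2952.

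**Figure D3:**
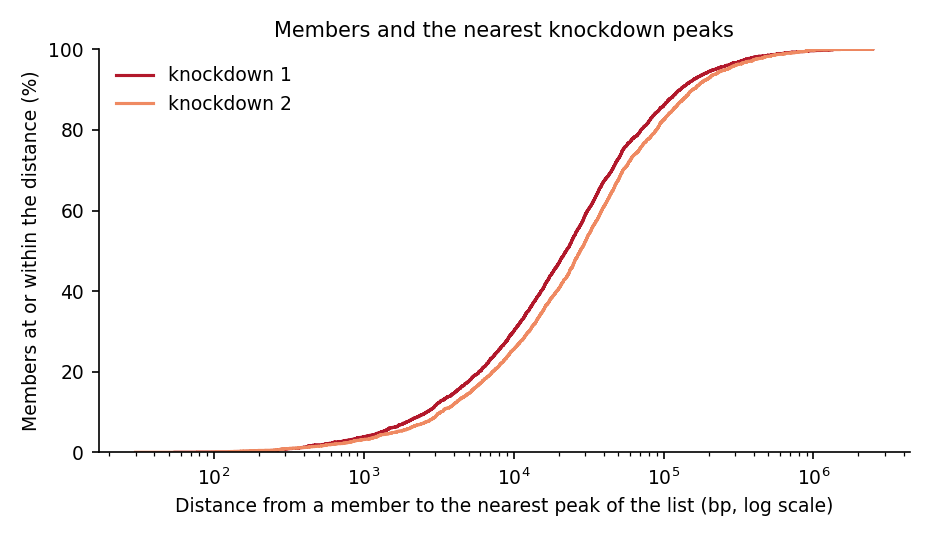
Cumulative share of the 2629 members (y axis, %) against the distance to the nearest peak of knockdown 1 and of knockdown 2 (x axis, bp, log scale). The medians are 22428 bp for knockdown 1 and 27786 bp for knockdown 2, and 4.49% of members have a peak of either list within 1 kb.

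For the few members beside a knockdown peak, the neighbouring region was looked up. For the 118 members within 1 kb of a knockdown peak, the neighbouring region that held it was called in both controls in 99 cases (83.9%) and in no control in 7. That neighbour scored above the member in both controls in 54 cases and below it in both in 9. This order is partly built in, as members need a score under 100 and the neighbour was chosen for its knockdown peak. The share called in both controls among all regions with a knockdown peak was not set beside these counts. They therefore do not show a trait of these members. The member closest to both knockdown lists, on chromosome 3 from 130949111 to 130949559, had no knockdown peak of its own and scored 88.5 and 70.8 in controls 1 and 2. A region beginning at 130948521 ended 3 bp short of it, with scores of 92.5 and 162.5 in knockdown 1 and 2 and of 146 and 86.4 in controls 1 and 2. On chromosome 11, the member from 116918681 to 116919291 scored 89.8 and 131 in the controls. Its neighbour, 9 bp away, scored 105 and 63.6 in the knockdown lists and 131 and 115 in the controls. On chromosome 10, the member from 80751844 to 80752383 scored 94.0 and 61.2 in the controls. Here the neighbour at 77 bp scored 50.1 and 88.6 in knockdown 1 and 2, 57.9 in control 1, and had no peak in control 2. In this last pair the control peak was the stronger one in the member and the knockdown peaks lay in the neighbour.

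At the other extreme were members in stretches almost without CTCF peaks. The member on chromosome 4 from 77204630 to 77205175 scored 65.6 and 108 in controls 1 and 2, and no region of any list lay within 2494912 bp. The member on chromosome 17 from 61460210 to 61460755 scored 70.4 and 161, and its nearest knockdown peaks lay 1347553 and 1347405 bp away. Those on chromosome 15 from 29958968 to 29959336 and chromosome 1 from 118374200 to 118374731 scored 61.2 and 50.1, and 74.7 and 54.3, with the nearest knockdown peak over 1 Mb away at 1235314 and 1041438 bp. Around these 4, no second region with a peak in both controls was found within 250 kb.

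Such isolation was not typical. The median distance to the nearest other region of any kind was 13367 bp for members (interval of the median 12531 to 14292 bp) and 11136.5 bp for comparison regions (10623 to 11737 bp). With lists of equal length, where weaker regions lie close under 100 only, the order turned, at 13309 bp for members and 15488 bp for comparison regions. To the nearest region called in all 4 lists it was 36283 bp for members and 34402.5 bp for comparison regions. Within 250 kb lay a median of 8 further regions with a peak in both controls around members and 7 around comparison regions, with quartiles of 4 and 11 for both.

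In the knockdown calls of the nearest control region, the surroundings of members resembled those of the comparison regions. The nearest other region called in both controls had a peak in both knockdown lists for 55.4% of members (53.5 to 57.3%) and 55.9% of comparison regions (54.8 to 57.1%). It had a peak in neither for 15.8% of members (14.4 to 17.2%) and 15.0% of comparison regions (14.2 to 15.8%). The intervals overlap and cover counting error only, since neighbouring regions share their libraries. Missing knockdown peaks next to a member were thus 0.797 percentage points more frequent than next to a comparison region, a gap smaller than the width of the intervals.

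Members stood alone or in short runs. When the weaker control regions were read in order along each autosome, the next one was a member after 27.8% of 2625 members (26.1 to 29.6%) and after 26.3% of 7197 comparison regions (25.3 to 27.4%). With lists of equal length, where weaker regions lie close under 100 only, these shares were 20.6% and 16.9%. Of the members, 1371 (52.1%) stood alone, 764 stood in runs of 2 and 306 in runs of 3. The longest runs held 6 members, and there were 4 of them.

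In the shortest of these 4 runs, the stronger regions between the members had a peak in 1 knockdown list only. It lay on chromosome 7 from 19658741 to 19782654 and spanned 124 kb, with 6 members scoring 53.0 to 127 in control 1 and 52.0 to 83.7 in control 2. Between the members lay 6 stronger regions, with scores of 130 to 153 in control 1 and 115 to 173 in control 2. All 6 were called in knockdown 1, at scores of 62.3 to 108, and none was called in knockdown 2, so all 12 regions of the stretch were missing from that list. On both sides the nearest region called in all 4 lists was strong in the knockdown libraries. The one from 19653922 to 19654630 scored 178 and 228 in knockdown 1 and 2 and 162 and 172 in controls 1 and 2. The one from 19783149 to 19783861 scored 124.6 and 138 in the knockdown lists and 137 and 128 in the controls.

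The other 3 runs also held regions with a knockdown peak, in each run some with a score of at least 100 in both controls. On chromosome 10, the run from 83950978 to 84852018 spanned 901 kb and held 11 further regions, 8 of them with a knockdown peak and 6 called in all 4 lists. Its members scored 51.1 to 117 in control 1 and 54.4 to 92.1 in control 2. On chromosome 13, the run from 32994923 to 34094195 spanned 1099 kb with 9 further regions, 3 of which had a knockdown peak in both lists. On chromosome 17, the run from 24146595 to 24527129 spanned 380.5 kb with 6 further regions, of which 5 had a knockdown peak. Its members scored 57.7 to 104 in control 1 and 53.0 to 150 in control 2. On chromosome 13 the first 4 members had no region with a knockdown peak between them, and on chromosome 17 the first 2 members were direct neighbours.

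Shared regions around members were examined for a change in order, a measure taken from other regions than the members. The shared regions include the 3460 comparison regions called in both knockdown lists. Those were chosen partly by these scores and calls, so the measure is not independent of the rule. The regions called in all 4 lists were ranked by score within each library, from 0 to 100 percentile points, and those within 50 kb of a member (2303) were set against those within 50 kb of a comparison region and of no member (4011). The mean rank near members minus that near comparison regions was 0.0698 points in knockdown 1 and -0.723 in knockdown 2, against 0.379 in control 1 and 0.187 in control 2. Both knockdown values lay below both control values. The knockdown mean was -0.327 ± 0.561 and the control mean 0.283 ± 0.136 (SD, n = 2 each), a difference of -0.61 points with an exact two-sided permutation p of 0.33, the smallest that 2 libraries against 2 allow. The test could not pass 0.05, and the difference is about as large as the spread between the knockdown libraries. Without knockdown 2 it was -0.213 points, and without knockdown 1 it was -1.01 points. With a reach of 100 kb in place of 50 kb it was -1.31 points.

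**Figure D4:**
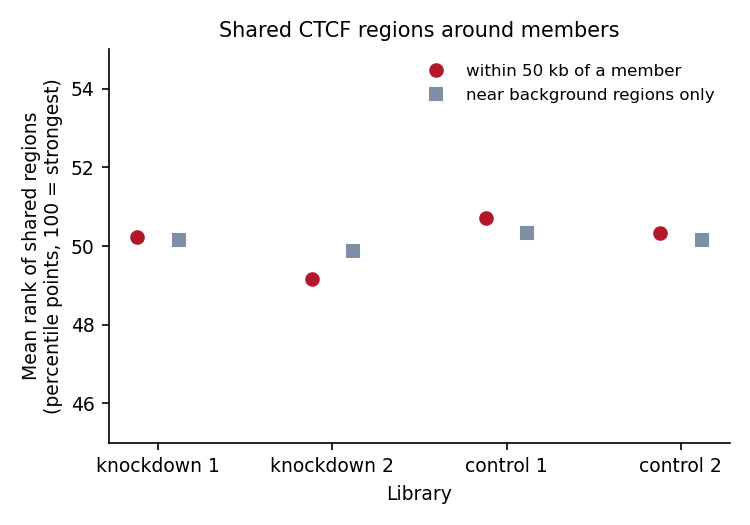
Mean rank (y axis, percentile points, 100 = strongest) of CTCF regions called in all 4 lists that lie within 50 kb of a member or near comparison regions only, for each library (x axis). The y axis covers 45 to 55 points. The means near members are 50.2 and 49.2 points in knockdown 1 and 2, and 50.7 and 50.3 points in controls 1 and 2.

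Every autosome held members, in similar shares. The share of weaker control regions without a knockdown peak ran from 22.0% on chromosome 16 (74 of 337, 17.6 to 26.8%) to 31.8% on chromosome 11 (242 of 760, 28.5 to 35.3%). Chromosome 11 was the one autosome whose interval lay above the 26.7% of all autosomes, and none lay below. The score classes of its regions would give 27.7% there. Both knockdown lists lacked slightly more of its weaker regions than of all, 40.5% in knockdown 1 and 59.9% in knockdown 2. With 19 autosomes examined and no test across libraries possible, this is given as a description. The lowest shares after chromosome 16 were 22.3% on chromosome 18 and 23.2% on chromosome 3.

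**Figure D5:**
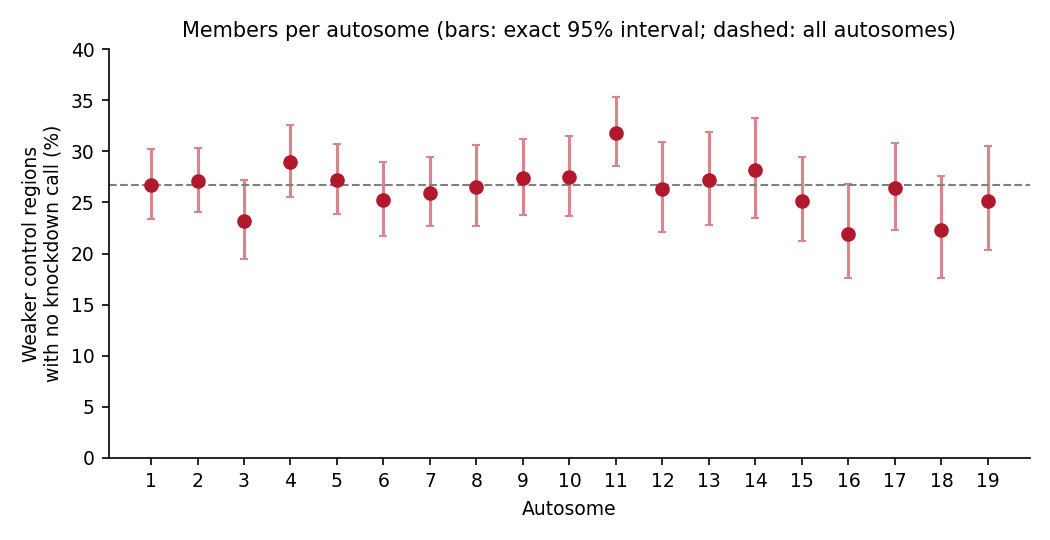
Share of weaker control regions with no knockdown peak (y axis, %) on each of the 19 autosomes (x axis). Bars are exact 95% intervals for counting error, and the dashed line is the share over all autosomes, 26.7%. Chromosome 11, at 31.8%, is the one whose interval does not include the line.

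Stronger control regions without a knockdown peak, 363 with a score of at least 100 in both controls, had wider control peaks than members. Their median peak width, averaged over both controls, was 472 bp (interval 461.5 to 483 bp), against 450 bp in members (446.5 to 453.5 bp). Stronger control regions with a knockdown peak had a median of 534 bp. These medians are not matched for score. Regions above the limit were therefore also compared within classes of the lower control score. Between 100 and 120, the median was 474 bp in 230 regions without a knockdown peak and 517 bp in 2814 regions with one. Between 120 and 150 it was 471 bp in 104 regions and 529.5 bp in 3179 regions.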

How the data were processed

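CTCF ChIP-seq peaks of 4 libraries were used as deposited, with 1 list per library. BWA, HOMER and mm9 appear in the submitters' processing notes, and per the file contents the peak names begin with MACS. Version and parameters of the caller, and any input, were not given in the sources used here. Each peak has a score by the authors, which was not rescaled between lists. Ranks were taken within a list, a common limit and the lower, higher or mean control score classed regions, and depth is unknown. Start and end were read as counted from 1.

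Peaks overlapping by at least 1 bp were merged, and the highest score per library was kept. Groups were taken from the sample titles. Medians, exact 95% Clopper-Pearson intervals and order-statistic intervals of medians cover counting error over regions, which are not replicates. The 1 test was an exact permutation over libraries. Named regions follow a fixed rule: 6 by mean control rank, 4 widest, 4 farthest from knockdown peaks, 3 nearest, the longest runs, 3 on each side of the limit and 3 comparison regions. The members, measures and rules were chosen with earlier results of these data known. Annotation and motif steps were not run without an mm9 reference. Python 3.11.15, numpy 2.4.6, pandas 2.3.3, scipy 1.17.1 and matplotlib 3.10.9 were used, and merging and distances were tested on simulated data.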

Additional observations from a re-analysis of the deposited data

How the results depend on the processing

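All settings kept the sign of the width and rank differences, but with a reach of 100 kb the rank difference was -1.31 points in place of -0.61. For the rank difference, leaving out 1 library could not turn the sign, as both knockdown values lay below both control values. The replicate block returns the same mean by construction, so these settings do not speak to its stability. The class-weighted width was chosen after seeing the data. With reciprocal overlap of 50% the member share was 30.0%, the width difference -25 bp and the share of members following a member 30.4% (29.8% following a comparison region). With scores under 80 the shares were 33.4% and 34.8%. With scores under 100 in both controls they were 37.5% and 38.3%, and the width difference was -33 bp. Equal list length gave 285 members, a share of 17.4%, -22 bp, and 20.6% following a member against 16.9% following a comparison region. The weaker regions of those lists lie close under 100 only, so these values are not matched to those of the full lists. Classes of mean control score gave -27.1 bp. Fewer or other peaks enter under each by construction, and no further cause was tested. Leaving out 1 library gave 3722 (without knockdown 2) to 5292 (without knockdown 1) members, with 4063 without control 1 and 4241 without control 2. Shares were 37.8 to 53.8% and width differences -50 to -33 bp. Median distances were 12290 to 15157 bp for members and 10846 to 12201 bp for comparison regions. Without knockdown 1 they were close, at 12290 and 12042 bp. The next region was a member after 38.6 to 53.9% of members and 37.4 to 53.8% of comparison regions. These shares were nearly equal without control 2 (42.09 and 42.03%) and without knockdown 1 (53.9 and 53.8%). The rank difference with the replicate block was -0.61 points (exact sign-flip p = 0.5, the smallest possible for 2 pairs). The labels do not say whether same-numbered libraries were handled together. The score deviations of control 1 and knockdown 1 from their group means had a correlation of 0.0201. A correlation over regions cannot show a shift common to a whole library, so pairing stays undecided. Depth is unknown and limits every statement on a missing peak.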

Other observations

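On chromosome X, 80 of 307 weaker control regions had no knockdown peak, which is 26.1% (95% Clopper-Pearson interval 21.2 to 31.4%). On chromosome Y 0 of 12 lacked one, with an upper limit of 26.5%. In windows of 5 Mb with at least 20 weaker control regions, 210 in all, the member share had a median of 26.9% and quartiles of 22.0 and 33.9%. It reached 50% or more in 5 windows, led by 60 to 65 Mb of chromosome 11 with 13 of 24 and 55 to 60 Mb of chromosome 13 with 17 of 32. The lowest was 2 of 24 at 60 to 65 Mb of chromosome 18. These windows were looked at after the values were seen and were not tested.

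The stretch of chromosome 7 from 19658741 to 19782654 was also the longest series of consecutive autosomal regions called in both controls, of any strength, that knockdown 2 lacked, with 12 regions. The next longest held 9, on chromosome 19 from 5016707 to 5130317 with 2 members and on chromosome 11 from 32614052 to 33626039 with 3 members. For knockdown 1 the longest series held 7 regions, on chromosome 6 from 77099184 to 78494605 with 4 members and on chromosome 17 from 88651270 to 95135161 with 5 members. These series were compiled after the values were seen, and the share due to the length of each list was not tested.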
